A study of Mus musculus with 3 samples.

Results

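The 48 genes described here are the cell cycle and DNA replication genes chosen by name from the 25759 genes listed for each of 3 mouse RNA sequencing libraries, and all 48 were found. They cover 7 roles: G1 cyclins and kinases, G1/S cyclins and E2F factors, replication licensing and helicase, nucleotide synthesis and the sliding clamp, mitotic cyclins and kinases, chromosome and spindle proteins, and CDK inhibitors. The libraries were made from follicular regulatory T (TFR) cells of C57BL/6J mice, 1 library per genotype. The N library was labelled Nfatc1fl/fl.Prdm1gfp/+.FIC and lacks the transcription factor NFATc1 in regulatory T cells. The αA library was labelled Nfatc1caaA.Prdm1gfp/+.FIC and carries a constitutively active form of the NFATc1/αA isoform. The PαA library was labelled Nfatc1caaA.Prdm1gfp/fl.FIC and in addition loses the transcriptional repressor Blimp-1, which Prdm1 encodes. All 3 share the FIC allele, a Cre recombinase expressed from the Foxp3 gene, so that deletion or activation was limited to cells that express or have expressed Foxp3, and a Prdm1 allele with a gfp reporter. All mice received 125 µg NP-KLH in alum with a boost on day 7, and B220-CD4+GFP+CXCR5+GITRhi cells of spleen and mesenteric lymph nodes were sorted on day 10. The number of mice per library and their ages are not given in the sources used here, and no library without an altered Nfatc1 allele was analysed.

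A cell that leaves quiescence first uses D-type cyclins with CDK4 and CDK6 to release E2F factors from the Rb protein. E2F factors then raise cyclin E, the MCM helicase that is loaded on replication origins, and the enzymes that make deoxynucleotides. Later in the cycle, cyclin B with CDK1 and factors such as FOXM1 raise the genes of chromosome condensation, spindle assembly and mitotic exit, while CDK inhibitors such as p21, p27 and p18 hold the kinases back. In T cells these genes are known for the rapid division that follows antigen, and Mki67, which encodes the proliferation antigen Ki-67, is widely used to mark cycling cells.

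Groups of letters known from such promoters were searched on both strands of the 300 bases around each start site (250 before it to 50 after it), taken from RefSeq on GRCm38.p6 for 39 of the 48 genes, the others not being analysed here. The E2F words TTTCCCGC, TTTGGCGC, TTTCGCGC and TTTGCCGC were present in 9 of the 39 promoters (23.1%), against 2.26% of 32851 RefSeq promoters of the same length. Of the 9, 6 belonged to the 8 licensing and helicase genes with a promoter. The CHR word TTTGAA, known from genes of late cell cycle phases, was present in 14 of 39 (35.9%, against 17.9% of all), among them 5 of 7 mitotic cyclin and kinase genes and 7 of 9 chromosome and spindle genes. The CCAAT box was present in 27 of 39 (69.2%, against 37.4%). Such a match describes letters and does not show a bound site. The 4 promoters printed here stand for genes that behaved differently between the libraries: Mcm6, the most abundant helicase gene, Ccnb2, which was highest in the PαA library, and Mki67 and Top2a, which were highest in the N library. They lie at chr1:128359656-128359955, chr9:70421505-70421804, chr7:135716330-135716629 and chr11:99024140-99024439 in that order, each on the minus strand and printed 5′ to 3′ in the direction of transcription, and capitals mark every E2F, CHR and CCAAT match.
Mcm6: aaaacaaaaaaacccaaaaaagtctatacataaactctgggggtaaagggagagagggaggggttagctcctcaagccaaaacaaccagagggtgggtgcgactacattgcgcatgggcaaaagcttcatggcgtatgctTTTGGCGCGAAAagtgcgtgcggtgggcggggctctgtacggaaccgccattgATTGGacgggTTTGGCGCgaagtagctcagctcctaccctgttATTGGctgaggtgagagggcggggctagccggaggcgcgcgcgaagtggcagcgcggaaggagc
Ccnb2: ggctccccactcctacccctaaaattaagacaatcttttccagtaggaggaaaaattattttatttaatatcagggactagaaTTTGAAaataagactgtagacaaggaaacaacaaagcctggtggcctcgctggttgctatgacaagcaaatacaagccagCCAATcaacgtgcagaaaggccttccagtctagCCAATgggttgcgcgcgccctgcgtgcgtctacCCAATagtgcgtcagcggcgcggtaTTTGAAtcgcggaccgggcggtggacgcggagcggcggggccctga
Mki67: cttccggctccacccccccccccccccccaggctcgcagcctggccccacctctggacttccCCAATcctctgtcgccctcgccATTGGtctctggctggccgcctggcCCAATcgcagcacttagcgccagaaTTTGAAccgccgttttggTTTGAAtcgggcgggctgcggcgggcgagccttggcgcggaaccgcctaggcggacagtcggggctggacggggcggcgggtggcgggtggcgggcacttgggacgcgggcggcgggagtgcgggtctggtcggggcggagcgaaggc
Top2a: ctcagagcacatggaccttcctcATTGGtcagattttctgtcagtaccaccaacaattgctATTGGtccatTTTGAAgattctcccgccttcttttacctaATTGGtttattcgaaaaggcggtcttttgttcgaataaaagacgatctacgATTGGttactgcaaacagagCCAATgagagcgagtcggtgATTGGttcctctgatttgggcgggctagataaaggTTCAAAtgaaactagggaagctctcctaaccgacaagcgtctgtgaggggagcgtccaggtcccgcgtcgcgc
The Mcm6 window held 3 E2F words, a pair of them overlapping 110 and 106 bases before the start site and a further one 47 bases before it. The Mki67 window held CHR words 116 and 98 bases before the start site, and the Top2a window held 6 CCAAT boxes and 2 CHR words.

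The mapped reads of each library were worked out from the exon reads, exon lengths and RPKM of deeply read genes. They came to 29726219, 27239921 and 25465829 in the order N, αA, PαA. The 48 genes took 86168, 73575 and 60638 exon reads, or 0.312%, 0.303% and 0.261% of all exon reads. Levels are given as RPKM, that is, exon reads divided by the exon length of the gene and by the mapped reads of the library. With 1 library per genotype no test was possible, so each ratio compares libraries and not genotypes, and the 3 comparisons share libraries. Brackets after a ratio hold its 95% counting interval on the log2 scale (exact Clopper-Pearson), which covers counting error only, since PCR copies were not told apart and animals were not replicated. The Nfatc1 level itself went against the labels, at an RPKM of 63.6 in N, 62.9 in αA and 32.4 in PαA, although such gene-level values do not resolve which exons were read. The names N, αA and PαA therefore stand for the libraries so labelled. Prdm1 stood at 25.6, 24.9 and 10.0, lower in the Blimp-1-deficient library. All 11 CD4 T and regulatory T cell markers were present, among them Foxp3 (32.7, 20.9 and 15.3) and Cxcr5 (48.3, 81.3 and 47.6). By RPKM all 11 were lower in PαA than in αA (median log2 ratio −0.49) and than in N (median −0.89). In PαA against N the smallest difference was a log2 ratio of −0.02, and the intervals of 10 of the 11 lay below 0. The 11 include Prdm1 itself, the gene targeted in PαA.

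As a set, the 48 genes lay close to the other genes of each comparison. Their median log2 ratio was −0.18 for αA against N, where the median of all genes was −0.17, and −0.05 for PαA against αA, where it was −0.07. For PαA against N it was −0.37 against −0.25. For the medians and signs, a gene counted when it had at least 30 exon reads in the 3 libraries together, which held for 12161 genes and for all 48. By RPKM 42 of the 48 were lower in αA than in N, where 67.5% of all genes were lower, but with TMM scaling, which shifts the median of all genes by 0.16, the split was 25 lower and 23 higher. In PαA against αA 25 were lower (52.1%, against 57.0% of all genes) and 23 higher, or 32 and 16 by TPM, and the median of the 48 turned to 0.01 with TMM scaling. In PαA against N 30 were lower (62.5%, against 67.5% of all genes) and 18 higher, or 26 and 22 with TMM scaling and 38 and 10 by TPM. The shifts of the median of all genes with TMM scaling in these comparisons were 0.07 and 0.23. Bulk RNA cannot tell fewer cycling cells from less RNA of these genes per cell.

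Few of the 48 genes passed a 2-fold difference. Among the 26 whose RPKM exceeded 5 in 1 or more libraries, 1 gene, Top2a, was at least 2-fold lower in αA than in N (background over all 7017 such genes 2.81%) and 0 were higher (background 1.44%). In PαA against αA 0 were lower (2.45%) and 0 higher (2.18%). In PαA against N 1 was lower, again Top2a (7.77%), and 0 were higher (2.57%). At 1.5-fold, 2 genes were lower in αA than in N, Cdk6 and Top2a (11.0%), and 0 higher (3.12%). In PαA against αA, Cdkn2c alone was lower at that fold (9.19%) and Ccnb2 alone higher (5.53%). In PαA against N 7 were lower, Mcm3, Mcm4, Mcm7, Rrm1, Rrm2, Cdk6 and Top2a (22.3%), and 1 was higher, E2f2 (5.67%). These shares of the 26 genes were near the background, or below it. When all 48 genes were counted, with 30 exon reads as the minimum, 4 were at least 2-fold lower in αA than in N (Mki67, Top2a, Kif20a and Cenpf, background 10.8%) and 0 higher (4.82%). In PαA against αA 2 were lower (Cenpe and Kif11, 9.25%) and 2 higher (Aurka and Plk1, 7.04%). In PαA against N 7 were lower (Mki67, Top2a, Kif20a, Kif11, Bub1, Cenpe and Foxm1, 16.7%) and 0 higher (5.68%). Each of these counts, as a share of the 48 genes, was below its background.

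**Figure D1:**
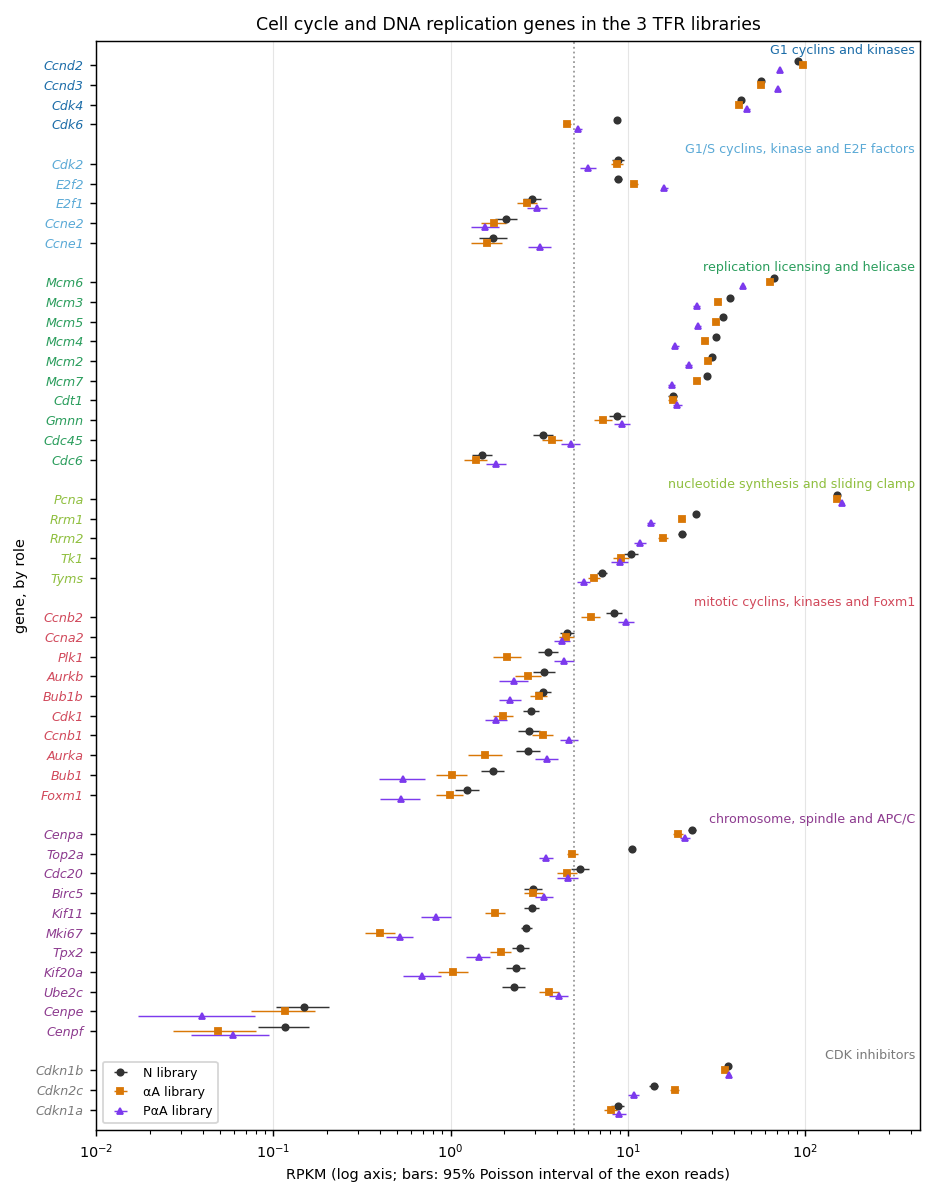
RPKM of the 48 genes on a log axis in the N (circles), αA (squares) and PαA (triangles) libraries, by role, with 95% Poisson intervals of the exon reads as bars and a dotted line at an RPKM of 5. Pcna lay highest, between 152 and 163, and the 6 MCM genes show the order N, αA, PαA, while Mki67 at 2.68 in N stands far from its other values of 0.401 and 0.519.

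The G1 cyclins and kinases all exceeded an RPKM of 5 in 1 or more libraries. Ccnd2, the most abundant D-type cyclin here, reached 91.5 RPKM in N, 97.3 in αA and 72.2 in PαA. It was thus lowest in PαA, 1.35-fold below αA [−0.46 to −0.40]. Against N its log2 ratio in PαA was −0.34, which turned to 0.23 after centring on exon length. Ccnd3 went the other way, at 56.9, 56.4 and 70.2, and Cdk4, the kinase partner of both, lay between 42.3 and 47.1. Cdk6, the second partner kinase, had 3053, 1470 and 1588 exon reads, or an RPKM of 8.69, 4.57 and 5.28. It was 1.90-fold lower in αA than in N [−1.02 to −0.84] and 1.65-fold lower in PαA than in N [−0.81 to −0.63], and highest in N. Cdk6 has 11819 exon bases, and genes of like length had a median log2 ratio of −0.47 for αA against N and −0.81 for PαA against N, beside −0.93 and −0.72 for Cdk6. After centring on exon length Cdk6 stood at 0.12 in PαA against N, so that its direction there turned.

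Among the G1/S genes, E2f2, an activator E2F factor, stood at 8.82, 10.8 and 16.1 RPKM from 1242, 1395 and 1946 reads, and was highest in PαA. The ratio was 1.23 for αA against N [0.18 to 0.41], 1.49 for PαA against αA [0.48 to 0.68] and 1.83 for PαA against N [0.77 to 0.97], and it kept its sign under each scaling used. Reads across its exon junctions numbered 121, 92 and 102. They were most numerous in N, so the rise above N was not seen in those reads. E2f1, a close relative, had 2.89, 2.70 and 3.08, values whose intervals overlap. Cyclin E drives entry into S phase with CDK2, and its genes differed from each other. Ccne1 had 120, 102 and 189 reads (RPKM 1.74, 1.61 and 3.19) and was highest in PαA. Ccne2 had 2.06, 1.76 and 1.57, of which 54.1%, 39.2% and 26.6% of the reads were unique, and with unique reads alone its log2 ratio for PαA against N moved from −0.39 to −1.42. Cdk2 itself was lower in PαA, at 8.85, 8.72 and 5.99.

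The 6 genes of the MCM2-7 helicase, which unwinds DNA at origins, formed the most uniform group. Mcm6 had 8667, 7561 and 4967 reads, which is 66.6, 63.4 and 44.6 RPKM. Mcm3 stood at 37.7, 32.5 and 24.6, Mcm5 at 34.5, 31.6 and 25.1, and Mcm4 at 31.4, 27.3 and 18.6. Mcm2 stood at 29.8, 28.4 and 22.1, and Mcm7 at 28.0, 24.6 and 17.8. Each gene was highest in N and lowest in PαA, and their summed RPKM was 228, 208 and 153. The median log2 ratio was −0.44 for PαA against αA (range −0.55 to −0.34), where all genes had −0.07, and −0.60 for PαA against N, where all genes had −0.25. All 6 stayed lower in both under TPM, TMM and median-of-ratios scaling and after centring on exon length, with medians of −0.37 and −0.37 under TMM. Between αA and N the median was −0.16, close to the −0.17 of all genes, and Mcm2, Mcm5 and Mcm6 turned to the higher side under TMM. Mcm6 was 1.05-fold lower in αA than in N [−0.12 to −0.03] and 1.42-fold lower in PαA than in αA [−0.56 to −0.46]. The 11 CD4 T and regulatory T cell markers were lower in the same comparisons, as given with the library totals, and their part in these levels was not tested. None of the 6 MCM genes passed 2-fold. In PαA against N 3 of them were past 1.5-fold lower, where 22.3% of all genes with an RPKM above 5 were. With TMM scaling these 3, Mcm3, Mcm4 and Mcm7, stood at −0.39, −0.53 and −0.43, short of 1.5-fold.

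The genes that load or start the helicase did not share this order. Cdc45, a helicase subunit, had 223, 230 and 273 reads (RPKM 3.33, 3.75 and 4.76). Cdc6, a loader, was the lowest of the group at 1.51, 1.39 and 1.81, 1.30-fold higher in PαA than in αA [0.10 to 0.66] and within counting error between αA and N [−0.40 to 0.17]. Cdt1, the second loader, lay between 17.9 and 19.1, but only 28.3%, 27.2% and 20.5% of its reads were unique. Gmnn, whose product geminin restrains Cdt1, had 8.70, 7.24 and 9.30. All 4 were higher in PαA than in αA by RPKM, whereas the 6 MCM genes were lower, although for Cdt1 the counting interval included 0 [−0.04 to 0.21] and TPM turned its sign.

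In the nucleotide group, Pcna, the sliding clamp and the most abundant of the 48 genes, reached 153 RPKM in N, 152 in αA and 163 in PαA. It differed by 1.01-fold between αA and N [−0.06 to 0.04] and was 1.08-fold higher in PαA than in αA [0.05 to 0.16], a sign that TPM turned. Fewer than 50% of its reads were unique in each library, 46.1%, 45.8% and 45.4%. The ribonucleotide reductase subunits, which make deoxynucleotides, followed the order of the MCM genes. Rrm1 stood at 24.4, 20.2 and 13.5, and Rrm2 at 20.2, 15.8 and 11.8. Rrm1 was 1.80-fold lower in PαA than in N, and Rrm2 1.71-fold lower, in every scaling on the same side. Tyms, thymidylate synthase and the lowest of the group, had 7.19, 6.48 and 5.64, with a log2 interval of −0.51 to −0.19 for PαA against N. Tk1, thymidine kinase, had 10.4, 9.23 and 9.05, with at most 26.5% of its reads unique.

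The mitotic cyclins and kinases were low, and only Ccnb2 passed an RPKM of 5. They split into genes that were highest in N and genes that were highest in PαA. Ccnb2, a mitotic cyclin, had 381, 259 and 383 reads (RPKM 8.37, 6.21 and 9.82). It was 1.35-fold lower in αA than in N [−0.66 to −0.20] and 1.58-fold higher in PαA than in αA [0.43 to 0.89]. The centrosome kinase Aurka had 158, 83 and 172 reads and was 2.22-fold higher in PαA than in αA, and Plk1, a kinase of mitotic entry, had 233, 125 and 245 reads and was 2.10-fold higher. Both were lowest in αA. Reads across exon junctions gave 55, 28 and 59 for Plk1 but 30, 28 and 35 for Aurka, and 130, 125 and 144 for Ccnb2, so the lower αA level of Aurka and Ccnb2 was not seen to the same extent in those reads. Ccnb1, the main partner of CDK1, had 206, 225 and 297 reads and was highest in PαA.

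The checkpoint kinase Bub1 had 176, 95 and 47 reads and was 3.21-fold lower in PαA than in N. Foxm1, the transcription factor of late cell cycle genes and the lowest of the group in N, had 172, 126 and 62 reads (RPKM 1.24, 0.994 and 0.523). It was 1.90-fold lower in PαA than in αA [−1.39 to −0.48] and 2.38-fold lower in PαA than in N [−1.69 to −0.82]. Bub1b, which encodes the related BUBR1, had 3.33, 3.14 and 2.17. Cdk1 had 2.85, 1.98 and 1.81, Aurkb, the kinase of the chromosomal passenger complex, 3.37, 2.74 and 2.27, and Ccna2 was nearly level at 4.55, 4.51 and 4.27. Thus in PαA against N, Aurka, Plk1, Ccnb1 and Ccnb2 were higher and the other 6 genes of the group lower, and of these 6 only Ccna2 changed sign with the scaling. Reads across exon junctions numbered 109, 83 and 109 for Cdk1, so its lower PαA level was not seen in those reads. Foxm1 had only 4, 14 and 0 of them. For Bub1 (64, 55 and 25), Bub1b (120, 133 and 79), Aurkb (42, 35 and 19) and Ccna2 (80, 114 and 51) they were fewest in PαA.

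**Figure D2:**
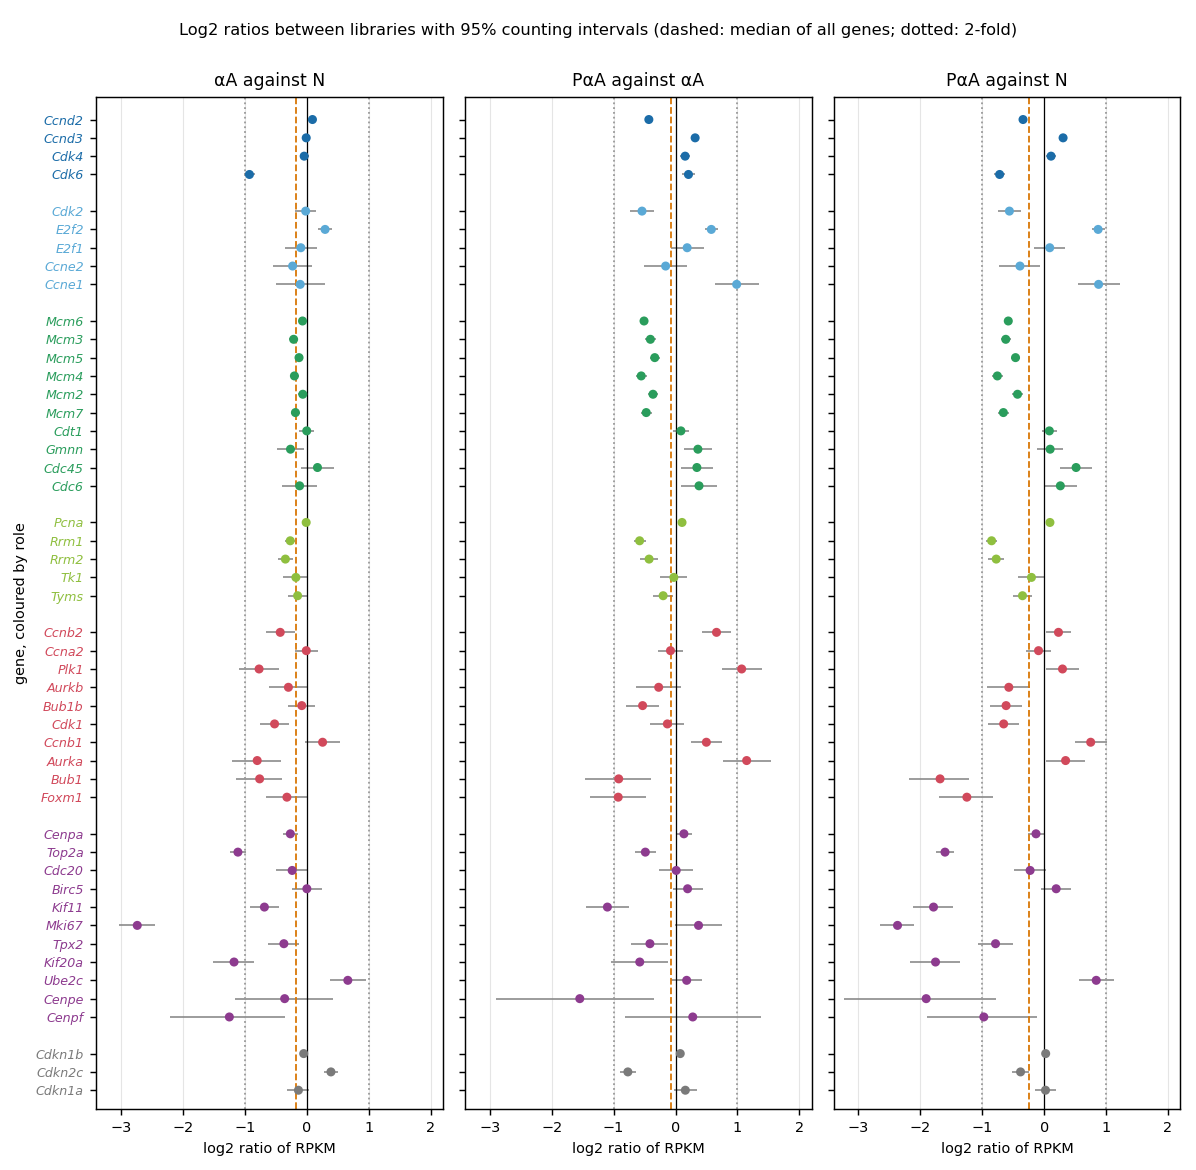
Log2 ratio of RPKM for the 48 genes, in the order of the plot of levels, for αA against N (left), PαA against αA (middle) and PαA against N (right), with 95% counting intervals as bars, the median of all genes as a dashed line and 2-fold as dotted lines. Mki67 at −2.74 lies farthest from 0 in αA against N, and in PαA against αA the 6 MCM genes lie together between −0.55 and −0.34 while Aurka (1.15) and Plk1 (1.07) lie past 2-fold on the other side.

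The widest differences were in the chromosome and spindle group. Exon reads of Mki67 numbered 802, 110 and 133 for N, αA and PαA, and its RPKM 2.68, 0.401 and 0.519. Its level was high in N alone, 6.68-fold lower in αA [−3.04 to −2.45] and 5.17-fold lower in PαA [−2.64 to −2.10], and the interval of PαA against αA reached 0 [−0.00 to 0.75]. Reads across its exon junctions numbered 71, 3 and 6. Top2a, which encodes the topoisomerase that untangles sister chromosomes, had 1637, 693 and 462 reads (RPKM 10.6, 4.87 and 3.48) and 595, 267 and 163 junction reads. It was 2.16-fold lower in αA than in N [−1.24 to −0.99], 1.40-fold lower in PαA than in αA [−0.66 to −0.32] and 3.04-fold lower in PαA than in N [−1.75 to −1.45]. The spindle motor genes followed: Kif11 had 411, 234 and 102 reads, and Kif20a 264, 107 and 67. Tpx2, a spindle assembly factor, had 322, 228 and 160 reads. All 3 motor and assembly genes were highest in N and lowest in PαA. Cenpf, a kinetochore gene and the lowest of the group by RPKM in N and αA, had 39, 15 and 17 reads, and its interval for αA against N ran from −2.22 to −0.36. Cenpe, the kinetochore motor and the lowest in PαA, had 35, 25 and 8 reads.

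Other genes of the same group differed less, or in the other direction. Cenpa, the centromeric histone and the most abundant of the group in all 3 libraries, had an RPKM of 23.1, 19.2 and 21.0, 1.20-fold lower in αA than in N [−0.39 to −0.14] and 1.10-fold lower in PαA than in N [−0.26 to −0.01], where TMM scaling turned its log2 ratio to 0.10. Birc5, which encodes survivin, lay between 2.94 and 3.36. Cdc20, an activator of the anaphase-promoting complex, had 5.39, 4.57 and 4.60. Ube2c, the ubiquitin-conjugating enzyme of that complex, had 176, 255 and 270 reads (RPKM 2.28, 3.60 and 4.08) and was higher in both αA and PαA than in N, at log2 ratios of 0.66 and 0.84, in every scaling on the same side. By RPKM Mki67, Top2a, Kif11, Kif20a, Tpx2, Cenpe and Cenpf were thus highest in N, as were Cenpa and Cdc20 by a smaller margin. Birc5 and Ube2c, which also belong to dividing cells, were highest in PαA, as was Ccnb1. Birc5 has 3402 exon bases, Ube2c 2600 and Ccnb1 2489, against 10061 for Mki67 and 5221 for Top2a. Kif20a, with 3796 bases, and Bub1 of the mitotic group, with 3421, are near Birc5 in length but were highest in N. The part of exon length in this split was not tested.

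Of the CDK inhibitors, Cdkn1b, which encodes p27, had an RPKM of 36.7, 35.4 and 37.3, with an interval of −0.11 to 0.01 for αA against N, 0.02 to 0.14 for PαA against αA and −0.04 to 0.08 for PαA against N. Cdkn1a, which encodes p21, had 8.81, 8.01 and 8.94, and all 3 of its intervals included 0. For both, TPM and TMM gave opposite signs in PαA against N. Cdkn2c, which encodes p18, had 1124, 1348 and 739 reads (RPKM 14.1, 18.4 and 10.8) and was highest in αA. It was 1.31-fold higher in αA than in N [0.27 to 0.50] and 1.71-fold lower in PαA than in αA [−0.90 to −0.64].

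Exon length moved with these ratios. Over all genes with at least 30 exon reads the median log2 ratio for PαA against N was −0.03 at 1000 to 2500 exon bases and −0.70 at 8000 to 12000 bases. The corresponding medians were −0.07 and −0.41 for αA against N, and 0.05 and −0.26 for PαA against αA. Across the 48 genes the correlation of log2 ratio and log2 exon length was −0.45 (Pearson) and −0.23 (Spearman) for αA against N, and −0.55 and −0.56 for PαA against N, as a description over genes that share libraries. The 15 genes over 4000 bases had a median of −0.79 in PαA against N, and the 17 up to 2500 bases 0.09. Mki67 has 10061 exon bases, and genes of like length had medians of −0.42 (αA against N) and −0.71 (PαA against N), beside −2.74 and −2.37 for Mki67. For Top2a, with 5221 bases, these medians were −0.24 and −0.43, beside −1.11 and −1.60. After centring on length Mki67 stood at −2.26 and −1.60 and Top2a at −0.85 and −1.16. Cenpf, with 11346 bases, stood at −0.73 after centring in αA against N, so that it no longer passed 2-fold, and moved from −0.97 to −0.15 in PαA against N, where genes of like length had −0.80. The MCM genes have 3031 to 4375 bases and had a centred median of −0.34 in PαA against αA, beside −0.44 before centring, and of −0.28 in PαA against N, beside −0.60. The part that exon length plays in these differences was not tested.

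**Figure D3:**
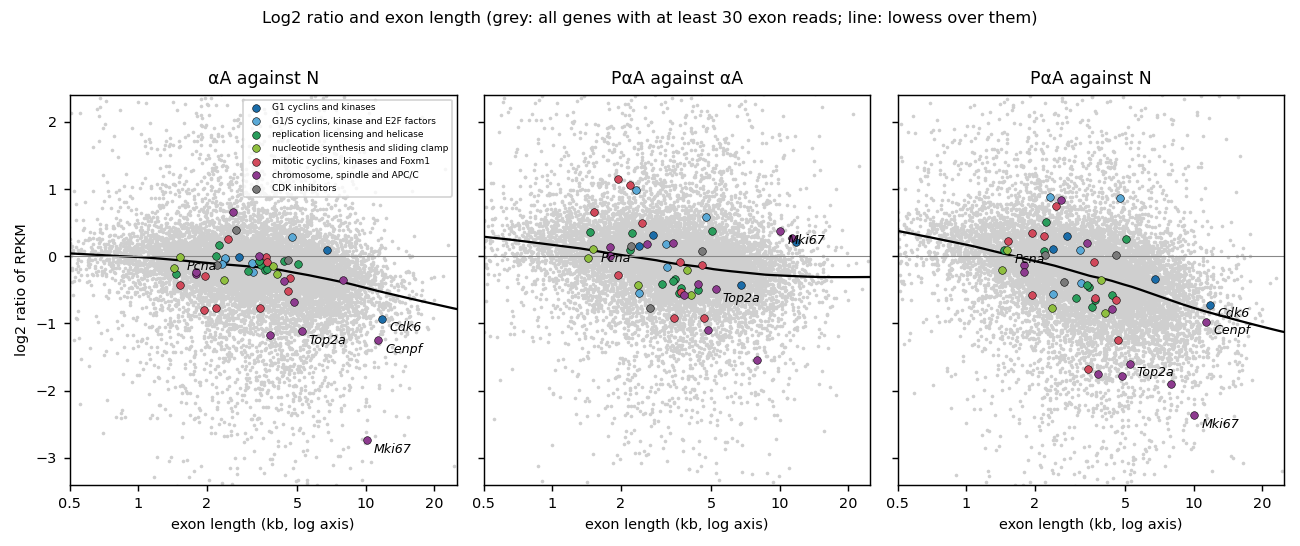
Log2 ratio of RPKM against exon length (kb, log axis) for αA against N, PαA against αA and PαA against N, with all genes of at least 30 exon reads in grey (those outside the axes not drawn), a lowess line over them in black and the 48 genes coloured by role. The line falls with length in all 3 panels, and in αA against N Mki67 at −2.74 lies well below it.

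Genes of the same processes outside the 48 were described by 6 lists. The 50 further S phase genes had medians of −0.18, −0.18 and −0.37 in αA against N, PαA against αA and PαA against N, where all genes had −0.17, −0.07 and −0.25. With at least 30 reads, 5 of 50 were 2-fold lower and 1 higher in αA against N, 5 lower and 2 higher in PαA against αA, and 12 lower and 0 higher in PαA against N. The backgrounds over all genes with 30 reads are 10.8% lower and 4.82% higher, 9.25% and 7.04%, and 16.7% and 5.68% in that order, so the counts in the first pair of comparisons lay near or below them. As a share of the 50, the 12 lower in PαA against N lay above the background and the 0 higher below it. Mcm10, a replication initiation factor, had 196, 124 and 5 reads in N, αA and PαA. Gins1, a subunit of the replicative helicase, had 130, 105 and 23 reads, and Gins3, another subunit, 276, 261 and 80, so all 3 were lowest in PαA. Dscc1, a clamp loader subunit, went another way with 30, 85 and 34 reads. Atad2 was the 1 gene of this list with an RPKM above 5 that passed 2-fold in PαA against N.

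The 50 further G2/M genes had medians of −0.44, −0.13 and −0.51, and 9, 5 and 13 of them were 2-fold lower and 0, 4 and 0 higher in the same 3 comparisons, against backgrounds of 10.8%, 9.25% and 16.7% lower and 4.82%, 7.04% and 5.68% higher. As shares of the 50, the 9 and 13 lower thus lay above the background. The counts in PαA against αA lay near it. Anln, which encodes the cytokinesis protein anillin, had 95, 18 and 21 reads, and Ttk, a spindle checkpoint kinase, 55, 13 and 38. Both were highest in N, as Mki67 was. Hmmr, a spindle gene, had 126, 61 and 25 reads. Among the genes with an RPKM above 5, the condensin genes Smc2 and Smc4 were at least 2-fold lower in PαA than in N.

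The 26 regulators around Rb, E2F and CDK had medians of −0.10, 0.14 and −0.11, and the last turned to 0.12 with TMM scaling and 0.23 after centring on exon length. With these the first turned too, to 0.07 and 0.07. Rb1, which encodes the retinoblastoma protein that restrains E2F, had an RPKM of 14.8, 7.23 and 8.21, and Cdkn2b, a CDK4 and CDK6 inhibitor, 5.39, 2.19 and 2.99, both at least 2-fold lower in αA than in N. Cdc25b, the phosphatase that activates CDK1, had 27.3, 25.5 and 54.9, and Cdkn2a, an inhibitor of the same family, 4.42, 2.60 and 7.40, both at least 2-fold higher in PαA than in αA. Of the 14 genes above an RPKM of 5, 2 were thus lower in αA against N (2.81% of all genes) and 2 higher in PαA against αA (2.18%). With at least 30 reads, Cdkn1c stood at a log2 ratio of −3.02 in PαA against αA. In PαA against N Cdkn1c stood at −2.39 and E2f7 at 1.38, both genes below that RPKM. The 14 quiescence genes, of which 13 had 30 reads, had medians of −0.04, −0.29 and −0.33. The last of these turned to 0.35 after centring on exon length, and the first to 0.12 with TMM scaling and 0.17 after centring. Klf2, a factor of resting T cells, stood at 54.3, 56.0 and 178 and was thus highest in PαA, while Foxo3 stood at 8.90, 8.62 and 4.37. The 18 genes of the Myc network, of which 17 had 30 reads, had medians of −0.20, −0.03 and −0.21, of which the last pair turned to 0.03 and 0.02 with TMM scaling, and Myc itself stood at 12.8, 11.9 and 11.5. The transferrin receptor gene Tfrc, needed for iron uptake in growth, had 6.03, 3.32 and 2.94, and Mxd1, a Myc antagonist, 6.44, 3.68 and 2.50. The 16 p53 pathway genes, of which 15 had 30 reads, had medians of −0.21, −0.20 and −0.34. Gadd45b, a stress response gene, stood at 51.9, 17.0 and 15.2 and Pmaip1, which encodes the proapoptotic NOXA, at 13.6, 6.77 and 10.2.

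**Figure D4:**
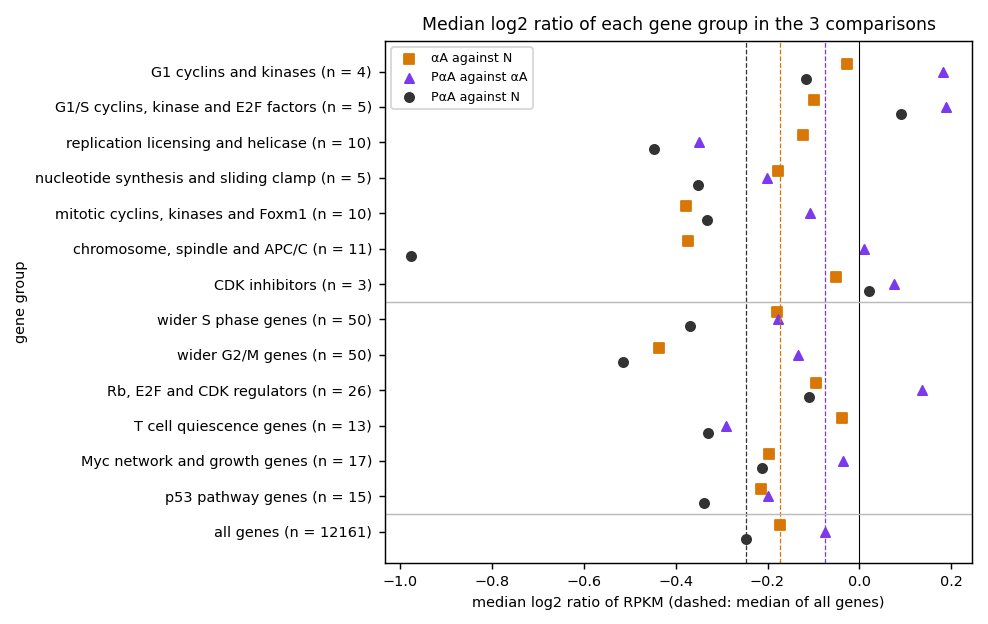
Median log2 ratio of RPKM for the 7 role groups of the 48 genes, the 6 lists of other genes and all genes, for αA against N (squares), PαA against αA (triangles) and PαA against N (circles), over n genes with at least 30 exon reads and with dashed lines at the median of all genes. The chromosome and spindle group lies lowest in PαA against N at −0.97, or −0.42 after centring on exon length (not drawn). The licensing and helicase group at −0.35 in PαA against αA lies farthest below all genes there.

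Lists of markers of other cell types also differed between the libraries. The lists are not specific to other cells: the germinal center list includes Bcl6, which the study describes in TFR cells too. A sum over such a list therefore does not measure other cells alone. Of the 7 germinal center B cell markers, 5 had 30 reads and 4 of these 5 were lower in αA than in N. The summed RPKM of the list was 33.5, 26.5 and 22.2. The summed germinal center markers were thus highest in N, and so were the myeloid and B cell sums given below. All 6 erythroid markers were higher in αA and PαA than in N, with a summed RPKM of 573, 2409 and 2153. The 7 myeloid markers summed to 273, 166 and 233, and the neutrophil gene S100a9 was at 0 reads in αA and at 235 and 153 in N and PαA. The 7 markers of CD8 T and NK cells summed to 125, 278 and 424 and were lowest in N, and the 8 B cell markers to 22.0, 15.7 and 16.5. The 7 plasma cell markers summed to 117, 136 and 172. The part of these cells in the levels of the 48 genes was not tested.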

How the data were processed

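RNA of sorted TFR cells was sequenced as poly(A) libraries (59-base single reads), 1 library per genotype. The authors mapped the reads to GRCm38 with CLC Genomics Workbench 12 at default settings and deposited, per gene, whole-number exon read counts (total and unique), intron and junction reads, RPKM and TPM (the deposited values carry decimal commas). The annotation release is not given in the sources used here.

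From the deposited counts and exon lengths, ratios of RPKM were taken between libraries, with exact Clopper-Pearson intervals on the split of reads (95%) and Poisson intervals for levels. A gene was counted when its RPKM exceeded 5 in 1 or more libraries, the filter the study states for its expression value, read here as RPKM, or with at least 30 exon reads in the 3 libraries together. Of 25759 genes, 3715 list an exon length of 0 and have no RPKM. Alternatives were TPM, TMM (edgeR 4.0.16) and median-of-ratios (DESeq2 1.42.0) factors, unique reads, other filters, pseudocounts and centring on exon length (lowess, fraction 0.3). No test was run. Groups follow the labels, and all 48 genes were described by role. The genes that received ratios were those past 2-fold, the highest and lowest of each role, and Mki67, Top2a, Pcna and the CDK inhibitors. Further genes past 1.5-fold or at odds with their group were named after their values were seen. The 48 genes and the lists were chosen with earlier results of these data known. Promoters came from RefSeq (GRCm38.p6). The values of some single marker genes are not reported here. Scripts were tested on simulated data. Figures used matplotlib 3.10.9.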

Additional observations from a re-analysis of the deposited data

How the results depend on the processing

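The median of the 48 genes was lower than 0 in αA against N (−0.21 to −0.01) and in PαA against N (−0.56 to −0.12) under each alternative, and lay between −0.22 and 0.02 in PαA against αA, where it turned above 0 with TMM and median-of-ratios factors. The median of all genes moved with these settings. In αA against N it was −0.21 with TPM, −0.01 with TMM and −0.002 with median-of-ratios factors, beside −0.21, −0.02 and −0.01 for the 48. In PαA against N it was −0.44, −0.02 and −0.003, beside −0.56, −0.14 and −0.12. The median of the 48 for PαA against N thus moved from −0.37 to −0.14 with TMM factors, −0.12 with median-of-ratios factors and −0.14 after centring on exon length. In the counts that follow, brackets hold the share of all genes in the same direction, where given. The number of genes past 2-fold in αA against N was 1 as reported. It was 0 with TMM factors, with median-of-ratios factors, with a pseudocount of 1 and after centring, where Top2a stood between −0.98 and −0.85. With RPKM above 1 it was 3 of 46, all lower (6.82%). With no filter or with at least 30 exon reads it was 4 of 48, all lower (11.5% and 10.8%). At 1.5-fold the 2 genes became 1 after centring. They became 9 with RPKM above 1, 8 lower (17.3%) and 1 higher (5.21%). With no filter or 30 reads they became 10, 9 lower (17.7% and 21.4%) and 1 higher (15.3% and 7.87%). In PαA against αA the 0 genes past 2-fold became 3 with RPKM above 1 and 4 with no filter or 30 reads, and the 2 past 1.5-fold became 9 with TPM, 8 with RPKM above 1 and 9 with no filter or 30 reads. In PαA against N the 1 gene past 2-fold became 2 with TPM, both lower (12.6%). It also became 2 with TMM, median-of-ratios or centring, where Top2a was lower and E2f2 higher. The shares of all genes were 3.89% lower and 3.59% higher with TMM, and 3.73% and 3.76% with median-of-ratios. E2f2 stood at 1.10 with TMM, 1.12 with median-of-ratios and 1.28 after centring. The count became 6 with RPKM above 1, all lower (12.8%). With no filter or 30 reads it became 7, all lower (16.7% with 30 reads). The 8 past 1.5-fold became 12 with TPM, 11 lower (34.8%) and 1 higher (3.45%). With TMM or median-of-ratios they became 3, 2 lower (12.2% and 11.6%) and 1 higher (11.8% and 12.6%). With centring they became 3 too. With RPKM above 1 they became 19, 15 lower (28.3%) and 4 higher (7.45%), and with no filter or 30 reads 21. The filters add low genes by construction, and the cause of the other changes was not tested. The 30-read minimum and the removal of genes under 50% unique reads were chosen after seeing the data. Of the values for counts and medians, 62 kept their size and 34 moved. No paired analysis was possible because each genotype has 1 library, and for the same reason leaving out a library gives no value.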
